A study of Solanum lycopersicum with 18 samples.

Results

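In tomato leaves exposed to heat stress (HS), 44 genes rose at least 4-fold on the scale used here in wild type (WT) and reached a similar mean level after 1 h in both hsfa1a knock-down lines. They were chosen by a rule on the counts, out of 35821 genes in the deposited table, of which 15312 reached 50 counts in 2 or more libraries. The level of a gene was log2(mean CPM of 3 libraries + 1), where CPM is the count per 1000000 counts of the library. A member had to rise by at least 2 in WT between 0 h and 1 h, and both lines had to lie within 0.5 of WT at 1 h. Its highest count also had to stay below 0.3 per base of the gene span. Of the 270 genes that met the rule on HS in WT and on count per base, 118 lay more than 0.5 below WT at 1 h in both lines, 29 lay more than 0.5 above it in both, and 79 showed other combinations.

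RNA was extracted from the fourth leaf of Moneymaker plants at 4 weeks of age that had been kept at 24 °C under 16 h of light and then held at 45 °C for 0 h or 1 h. Each genotype had 3 libraries (labelled biological replicates) at each time, where the methods state fewer, so n = 3 counts libraries. The genotypes were WT and the 2 independent transgenic lines named CS2 and CS3 in the table, each carrying a hairpin RNA construct against HSFA1a. The promoter of the construct is not given in the sources used here, and whether CS2 is line1 or line2 of the sample labels is not given either. The 18 libraries held between 1713285 and 3669618 counts. Counts on HSFA1a (Solyc08g005170.3, placed by gene order) were between 65.6 and 96.3 CPM in the lines and between 67.6 and 87.0 CPM in WT at 0 h. At 1 h they were between 75.9 and 125 CPM in the lines and between 58.9 and 72.3 CPM in WT. The counts were thus not lower in the lines at either time, and at 1 h every line library lay above every WT library. The paper states that the construct lowers HSFA1a expression, which these counts do not show. CS2 and CS3 stand throughout for the libraries labelled so. Reads of the native transcript and of the hairpin cannot be told apart. In such bulk samples, fewer cells of a type and less RNA per cell cannot be told apart.

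Heat stress transcription factors bind repeated GAA units called heat shock elements and switch on chaperone genes within minutes of a temperature rise. Class A1 factors such as HSFA1a are known as early activators of this response in tomato, and they act with other members of a large factor family. Leaves also respond to heat through calcium, hormone and unfolded-protein signalling, and organelle genomes have transcription of their own.

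The contrasts that defined the members are given as a description, without a test. In WT, the rise at 1 h was between 2.02 and 4.01 on the log2(mean CPM + 1) scale, with a median of 2.44. Over all 15312 genes the median difference was -0.13 in WT, -0.18 in CS2 and -0.17 in CS3 when CPM was scaled by the library total. Of the tested genes, 2.39% rose by at least 2 in WT. In CS2, the difference of the members between 1 h and 0 h was between -0.52 and 3.95 with a median of 2.18, and 26 of 44 rose by at least 2, where 2.12% of all tested genes did. In CS3 it was between -0.13 and 4.50 with a median of 2.22, and 28 of 44 rose by at least 2, against 2.42% of all tested genes. The 1 h side of both lines entered the rule, so nothing is read from these shares. The rise was smaller than in WT for 32 members in CS2 and for 27 in CS3, and 24 members rose by at least 2 in every genotype. The rule set a minimum rise in WT alone, which favoured larger rises there, so nothing is read from these counts either.

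**Figure D1:**
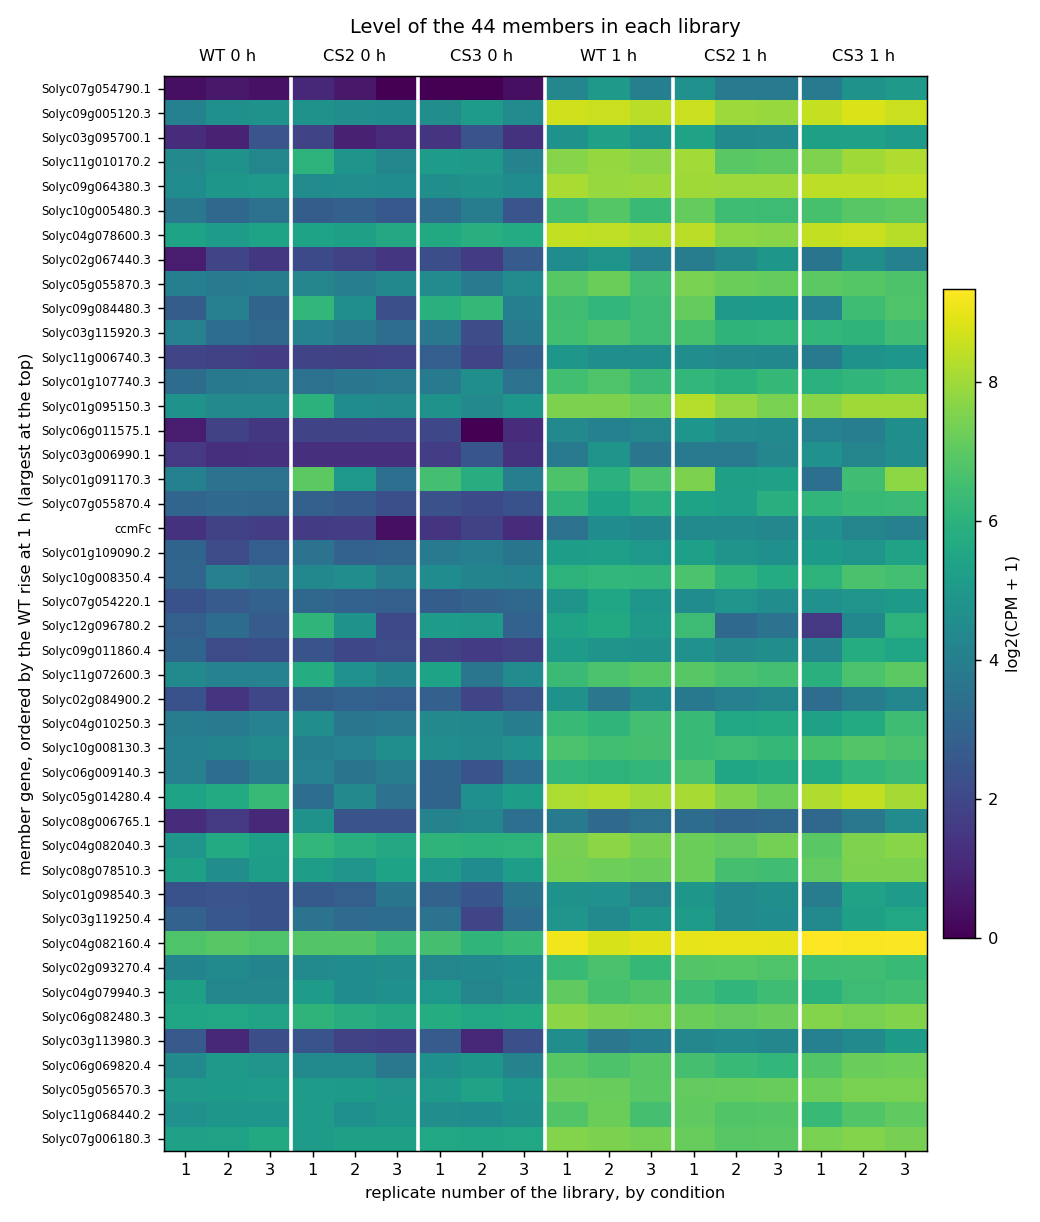
Level of the 44 members, as log2(CPM + 1) in colour, in the 18 libraries, with 3 replicates for each genotype and time and the genes ordered by their rise in WT. The 1 h columns are lighter than the 0 h columns in nearly every row, and Solyc08g006765.1, Solyc12g096780.2, Solyc01g091170.3 and Solyc09g084480.3 break that pattern in the lines.

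In 40 of the 44 members, all 1 h libraries lay above all 0 h libraries of the same genotype in WT, in CS2 and in CS3. Taken by genotype, it held for 44 members in WT, 40 in CS2 and 40 in CS3, against 22.2%, 23.2% and 21% of all tested genes. The share of all tested genes for the 3 genotypes at once was not computed. WT levels at both times and the 1 h levels of the lines entered the rule, so nothing is read from these counts. In those 40 members the lowest rise was 1.24 in CS2 and 1.25 in CS3. The remaining 4 overlapped in a line and are described further on. Together the members took between 0.0739% and 0.123% of the counts at 0 h and between 0.384% and 0.568% at 1 h. The lowest shares at 1 h were those of CS2 replicate 2 (0.389%) and CS2 replicate 3 (0.384%), the latter being the library with the largest total.

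Only 2 members could be named, because most identifiers match no annotated name. One was ccmFc (CQW56_mgp29), a mitochondrial gene whose product belongs to the machinery that joins haem to c-type cytochromes. It spans bases 100079 to 102344 of the mitochondrial sequence in the M82 assembly, plus strand, and its locus tag and coordinates are those of the RefSeq entry. Its CPM at 0 h was 1.60, 2.55 and 2.24 in WT. CS2 had 2.20, 2.20 and 0.293, and CS3 had 1.70, 2.53 and 1.28. At 1 h it was 10.5, 22.3 and 19.6 in WT, against 20.4, 20.7 and 18.8 for CS2 and 25.5, 17.9 and 15.8 for CS3. Every 1 h library lay above every 0 h library, and the genotypes overlapped at both times. The means in WT were 2.13 ± 0.486 and 17.5 ± 6.19 CPM (SD, n = 3), from 5 to 9 counts per library at 0 h and from 22 to 48 at 1 h.

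The other 4 mitochondrial genes that passed the count minimum also had higher means at 1 h in each genotype. The rise in WT was 1.93 for nad4 (a subunit of respiratory complex I), 1.54 for atp6 and 1.48 for atp1 (subunits of ATP synthase), and 1.04 for rrn26 (the large ribosomal RNA). These 4 lie under the limit of 2 and are not members. The mitochondrial genes rps4 and rps10 rose by 2.236 and 2.015 in WT. Both lay within 0.5 of WT in each line at 1 h but missed the count minimum. Counts on the mitochondrial sequence made up between 0.016% and 0.0452% of the library at 0 h and between 0.0586% and 0.0894% at 1 h. The part of this share in the rise of ccmFc was not tested.

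The other named member was Solyc01g091170.3 (plus strand of chromosome 1, from 79005857 to 79008501). By the order of its neighbours it matched ARG2 in the RefSeq annotation of assembly SLM_r2.1, with 31 of 39 neighbours in place against 14 for the next best position. The gene spans 2645 bases and the RefSeq entry 2137, close to the largest span ratio accepted, 1.25. ARG2 encodes arginase 2, which splits arginine into ornithine and urea. Its CPM in replicates 1 to 3 was 16.3, 10.8 and 10.5 in WT at 0 h and 105, 61.5 and 103 at 1 h. In CS2 it was 124, 30.3 and 9.66 at 0 h and 180, 38.3 and 39.2 at 1 h. In CS3 it was 93.2, 55.7 and 15.1 at 0 h and 9.62, 87.6 and 215 at 1 h. WT was thus split by time, whereas in each line single libraries at 0 h exceeded single libraries at 1 h. The 3 means at 1 h, 89.9 ± 24.6 CPM for WT, 86.0 ± 81.8 for CS2 and 104 ± 103 for CS3 (SD, n = 3), were close although the libraries of the lines differed by 4.71-fold and 22.3-fold.

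ARG2 has a neighbour, Solyc01g091160.4, 7272 bases away on the same strand, and RefSeq lists the related gene ARG1 beside ARG2. Reads that fit near-identical copies equally well may have been lost at the mapping quality filter. The neighbour held between 24 and 69 counts at 0 h and between 9 and 26 at 1 h.

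The 8 members with the highest CPM in WT at 1 h are named next, and CPM per kilobase of gene span (introns included) is given where genes are compared. Solyc04g082160.4 (chromosome 4, from 65704055 to 65716240) took the most counts. Its CPM was 107, 121 and 107 in WT at 0 h and 563, 439 and 485 at 1 h. In CS2 it went from 115, 114 and 87.8 to 503, 523 and 515, and in CS3 from 95.2, 67.3 and 80.1 to 647, 602 and 620. CS3 lay above both other genotypes at 1 h in every library, by 0.33 over WT in the mean. Per kilobase the gene stood at 40.7 CPM in WT at 1 h.

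Solyc09g005120.3 (chromosome 9, from 74793 to 80178) combined a high level with a large rise, 4.00 in WT, 3.55 in CS2 and 3.87 in CS3. Its CPM was 16.0, 25 and 26.5 in WT at 0 h and 402, 389 and 329 at 1 h. The lines overlapped WT at 0 h, with 25.8, 23.1 and 22.5 in CS2 and 23.2, 34.4 and 21.5 in CS3. At 1 h, CS3 (365, 447 and 383) overlapped WT, as did CS2 replicate 1 (381), whereas CS2 replicates 2 and 3 (253 and 235) lay below every WT library. Per kilobase it reached 69.4 CPM in WT at 1 h.

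Solyc04g078600.3 (chromosome 4, from 63060990 to 63064988) showed the same division among the CS2 libraries. In WT its CPM went from 41.6, 35.2 and 42.2 to 353, 348 and 309, and in CS3 from 49.6, 56.5 and 52.5 to 354, 384 and 324. In CS2 it went from 41.7, 39.1 and 49.2 to 330, 212 and 203. All 3 CS3 libraries at 0 h lay above those of WT and CS2.

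Solyc09g064380.3 (chromosome 9, from 57911431 to 57918703) was close between replicates. Its CPM in WT went from 22.4, 29.8 and 31.8 to 282, 236 and 242. In CS2 it went from 22.0, 23.1 and 22.5 to 259, 250 and 247, and in CS3 from 24.4, 26.4 and 22.4 to 339, 335 and 345. At 1 h, CS3 lay above WT and CS2 in every library, by 0.42 over WT, whereas CS2 and WT overlapped.

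Solyc11g010170.2 (chromosome 11, from 3261022 to 3266040) varied more in the lines. Its CPM was 19.8, 25.8 and 18.7 in WT at 0 h, 63.9, 27.6 and 18.4 in CS2 and 33.7, 32.2 and 17.3 in CS3. At 1 h it was 198, 232 and 207 in WT. CS2 had 262, 124 and 130, and CS3 had 182, 255 and 301. The rise was 3.25 in WT, 2.20 in CS2 and 3.10 in CS3.

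The other 3 of the 8 were Solyc05g014280.4, Solyc06g082480.3 and Solyc04g082040.3. Solyc06g082480.3 (chromosome 6, from 50835047 to 50842170) rose from 44.9 ± 1.71 to 190 ± 19.1 CPM in WT, from 56.7 ± 8.84 to 145 ± 8.71 in CS2 and from 50.6 ± 3.85 to 185 ± 9.83 in CS3 (SD, n = 3). Its CS2 libraries at 1 h, between 135 and 152 CPM, lay below all of WT and CS3. Solyc04g082040.3 (chromosome 4, from 65617550 to 65622130) lies 81925 bases from Solyc04g082160.4, the shortest distance between any pair of members. It rose from 38.8 ± 11.4 to 185 ± 23.1 CPM in WT, from 59.3 ± 11 to 150 ± 14.8 in CS2 and from 64.9 ± 2.15 to 170 ± 42.3 in CS3 (SD, n = 3). Per kilobase, Solyc05g014280.4 stood highest of these 8 in WT at 1 h with 111 CPM, and Solyc06g082480.3 lowest with 26.7 CPM.

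**Figure D2:**
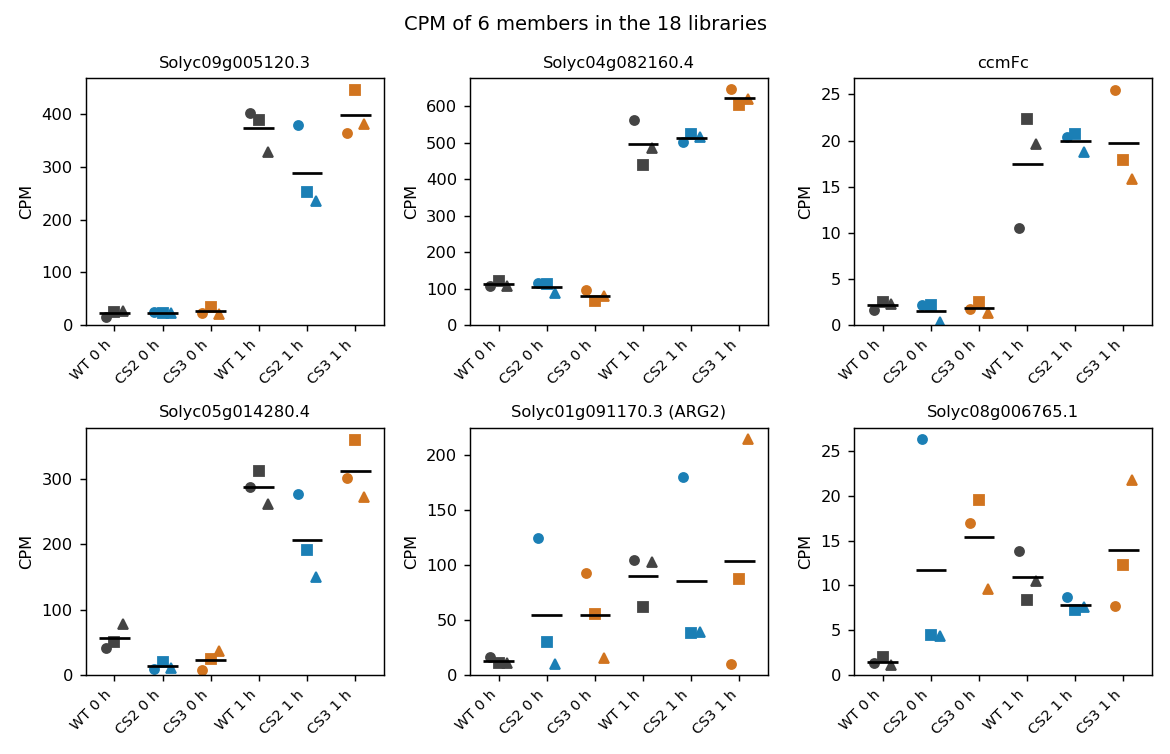
CPM of 6 members in each of the 18 libraries, on axes that start at 0, with circles, squares and triangles for replicates 1, 2 and 3 and a bar for the mean of 3. Solyc09g005120.3, Solyc04g082160.4 and ccmFc separate 0 h from 1 h in each genotype, Solyc05g014280.4 starts lower in the lines, and Solyc01g091170.3 (ARG2) and Solyc08g006765.1 overlap between 0 h and 1 h in the lines.

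By the size of the rise, the first 8 members were Solyc07g054790.1, Solyc09g005120.3, Solyc03g095700.1, Solyc11g010170.2, Solyc09g064380.3, Solyc10g005480.3, Solyc04g078600.3 and Solyc02g067440.3, with 4.01, 4.00, 3.35, 3.25, 3.13, 3.11, 3.05 and 3.05 in WT. Solyc07g054790.1 (chromosome 7, from 63457448 to 63457720) spans only 273 bases and was nearly absent at 0 h. Its counts at 0 h were 1, 2 and 1 in WT, against 4, 2 and 0 for CS2 and 0, 0 and 1 for CS3. At 1 h they were 40, 67 and 37 in WT. CS2 had 44, 30 and 50, and CS3 had 28, 47 and 76. With so few counts at 0 h the log2(mean CPM + 1) scale understates the change, and no fold is given.

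Solyc03g095700.1 (chromosome 3, from 52970391 to 52970816) rose by a similar amount in each genotype, 3.35 in WT, 3.47 in CS2 and 3.44 in CS3. Its CPM went from 1.28, 0.851 and 4.48 to 25.9, 40.0 and 29.3 in WT. Solyc10g005480.3 (chromosome 10, from 363076 to 364856) rose by 3.11 in WT and by more in the lines, 3.95 in CS2 and 3.49 in CS3. Its CPM at 0 h was 12.5, 7.94 and 10.1 in WT and 5.76, 6.34 and 4.98 in CS2, so the CS2 libraries lay below those of WT before HS. At 1 h it stood at 95.2 ± 18.6 in WT, 102 ± 31.6 in CS2 and 116 ± 16.8 in CS3 (SD, n = 3). Solyc02g067440.3 (chromosome 2, from 37218850 to 37222783) rose from 1.78 ± 1.10 to 22.1 ± 5.38 CPM in WT, and its rise was 2.65 in CS2 and 1.94 in CS3.

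**Figure D3:**
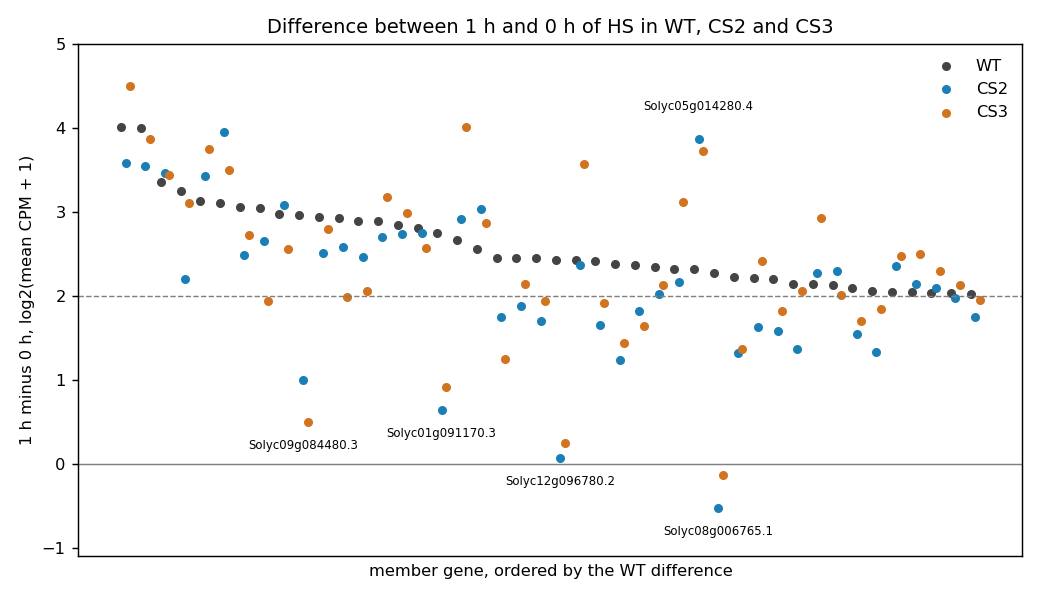
Difference between 1 h and 0 h on the log2(mean CPM + 1) scale for the 44 members in WT, CS2 and CS3, ordered by WT, with a dashed line at the limit of 2 that the rule set for WT. Solyc09g084480.3, Solyc01g091170.3, Solyc12g096780.2 and Solyc08g006765.1 lie near or below 1 in both lines, and Solyc05g014280.4 lies above WT in both.

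The levels of CS2 and CS3 at 0 h entered neither the rule on the rise in WT nor the band at 1 h, but their counts did enter the count minimum and the limit on count per base. In 3 members the highest count came from CS2 replicate 1 at 0 h, and 1 member, Solyc08g006765.1, reached 50 counts in 2 libraries only through the lines at 0 h, whereas the other 43 reached it without them. CS2 and CS3 at 0 h were compared with edgeR's quasi-likelihood test over all 15312 genes, with all 18 libraries in one fit. No member passed an adjusted p of 0.05, and 0.0261% of all tested genes did. At an unadjusted p of 0.05, 5 of the 44 members passed, against 11.1% of all tested genes, and DESeq2 called 0 members (0.0653% of all tested genes), with 5 at the unadjusted level. The median over the members was -0.05 on the log2 scale, beside -0.01 over all tested genes, with a median standard error of 0.34 per member. Differences of the size of that error could not be resolved at this depth.

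The 5 members at the unadjusted level are named after their values were seen, and each missed the adjusted threshold in edgeR. Solyc04g082160.4 was higher in CS2 by 0.38 (standard error 0.138, adjusted p = 0.422, edgeR), and Solyc06g009140.3 by 0.97 (standard error 0.361, adjusted p = 0.422, edgeR). Solyc11g006740.3 was lower in CS2 by a log2 difference of -0.96, Solyc01g109090.2 by -0.72 and Solyc07g006180.3 by -0.28. For Solyc01g109090.2 (chromosome 1, from 90416834 to 90417298), CPM at 0 h was 10.7, 6.61 and 7.32 in CS2 and 13.9, 15.2 and 11.5 in CS3, beside 7.04, 3.40 and 5.98 in WT. The CS3 libraries lay above all others. Among all CS3 and CS2 libraries at 0 h, 5 members were higher in every CS3 library and 2 lower, against 8.37% and 6.84% of all tested genes. Solyc06g009140.3 was one of the 2, with 16.5, 11 and 14.3 for CS2 against 7.08, 4.34 and 9.61 for CS3.

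The comparisons of the lines with WT at 0 h share the WT libraries with the rule, which favoured genes that were low there, so nothing is read from their counts. By edgeR, 0 of 44 members passed in CS2 against WT, where 0.0522% of all tested genes passed. At an unadjusted p of 0.05 there were 12 members, against 3.51% of all tested genes, and DESeq2 called 2 members and 0.163% of all tested genes. In CS3 against WT 1 member was called higher, Solyc08g006765.1, where 0.137% of all tested genes were called higher. Because this gene met the count minimum only through the libraries in which it is high, its call is no test of it. DESeq2 called 3 members and 0.836% of all tested genes. For the mean of both lines against WT 1 member was called lower, Solyc05g014280.4, where 0.0784% were called lower, and DESeq2 called 2 members and 0.366% of all tested genes. The CS3 count was 0 without WT replicate 1, 2 or 3 or without CS3 replicate 1 or 2. The count for the mean of both lines was 0 without WT replicate 1, 2 or 3 and 2 without CS2 replicate 2. The gene called was not always the same. For this mean, Solyc05g014280.4 lost its call in 7 of 16 alternatives to the main fit. Solyc08g006765.1, not called there in the main fit, was called in 6 of the 16.

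Before HS, 4 members were at least 1 higher than WT on the log2(mean CPM + 1) scale in both lines, and 1 was at least 1 lower, beside 0.222% and 0.0653% of all tested genes. The 4 were Solyc08g006765.1, Solyc01g091170.3 (ARG2), Solyc12g096780.2 and Solyc09g084480.3, which are also the 4 members whose 0 h and 1 h libraries overlapped in the lines. The rule held the lines near WT at 1 h, so a member raised in them at 0 h had to rise less there. The match is therefore not a second result. The place of Solyc08g006765.1 among them was partly fixed by the count minimum, which it met through its 0 h counts of 96, 60 and 54 in the lines. Without CS2 replicate 1 the number fell to 2, because the difference of CS2 from WT became 0.63 for ARG2 and 0.51 for Solyc09g084480.3. Taken by line, 4 of 44 members in CS2 and 5 in CS3 were at least 1 higher than WT at 0 h. Of the 79 heat-induced genes with other combinations at 1 h, 10 and 14 were. Of the 118 below WT at 1 h 8 and 4 were, and of the 29 above it 1 and 1. The WT libraries at 0 h entered the rule, so nothing is read from these counts.

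Solyc08g006765.1 (chromosome 8, from 1327847 to 1328572) had a CPM of 1.28, 1.99 and 1.12 in WT at 0 h, from 3 to 7 counts. In the lines at 0 h it had 26.3, 4.41 and 4.39 in CS2 and 17, 19.5 and 9.61 in CS3, all above WT. At 1 h it had 13.9, 8.38 and 10.4 in WT, against 8.76, 7.20 and 7.63 for CS2 and 7.69, 12.3 and 21.8 for CS3. WT rose by 2.27, whereas the difference was -0.52 in CS2 and -0.13 in CS3. The mean in CS2 at 0 h rested largely on replicate 1, without which the difference from WT was 1.13 in place of 2.37.

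Solyc12g096780.2 (chromosome 12, from 68787870 to 68790873) had 6.08, 8.79 and 5.6 CPM in WT at 0 h and 41.2, 50.3 and 32.2 at 1 h. In CS2 it had 68.3, 26.7 and 3.22 at 0 h and 84.6, 8.10 and 10.6 at 1 h. In CS3 it had 34.8, 31.1 and 6.73 at 0 h and 1.92, 19.5 and 65.5 at 1 h. The rise in the means was 2.43 in WT, 0.07 in CS2 and 0.25 in CS3.

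Solyc09g084480.3 (chromosome 9, from 65580290 to 65581922) had 5.76, 15.9 and 7.10 CPM in WT at 0 h and 88.6, 71.7 and 84.0 at 1 h. In CS2 it had 72.5, 24.2 and 3.81 at 0 h and 140, 32.0 and 32.7 at 1 h. In CS3 it had 59.8, 73.8 and 15.4 at 0 h and 16.8, 85.9 and 109 at 1 h. As in ARG2 and Solyc12g096780.2, the libraries of the lines spanned the whole distance between the WT levels at 0 h and at 1 h.

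These 3 genes had the largest spread between libraries of one condition among the members, and they are set apart here after their values were seen. Their SD within conditions, pooled over the 6 conditions on the log2(CPM + 1) scale, was 1.54 for Solyc12g096780.2, 1.40 for ARG2 and 1.25 for Solyc09g084480.3. The next member had 0.68, the median member 0.38 and the median tested gene 0.22, and 0.261% of all tested genes exceeded 1. The spread lay mostly in the lines. The SD of ARG2 was 0.33 and 0.43 in WT at 0 h and 1 h, 1.78 and 1.26 for CS2, and 1.31 and 2.23 for CS3. Solyc09g084480.3 had 0.70 and 0.16 in WT at 0 h and 1 h, 1.98 and 1.20 for CS2, and 1.19 and 1.43 for CS3. The same libraries stood high for all 3 genes: CS2 replicate 1 at both times and CS3 replicate 3 at 1 h. CS2 replicate 3 and CS3 replicate 3 at 0 h and CS3 replicate 1 at 1 h stood low.

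Across the 18 libraries, the deviations of Solyc12g096780.2 and Solyc09g084480.3 from their condition means had correlations of 0.95 and 0.90 with those of ARG2. This is a description over libraries that also differ in depth. Among the other members Solyc04g010250.3 and Solyc11g010170.2 also exceeded 0.8, and the median of the 41 other members was 0.37. Of the tested genes, 110 exceeded 0.8 and the median was -0.02, so the pattern was not confined to members. The member median in CS2 replicate 1 was also the highest of the CS2 libraries, 18.8 CPM at 0 h and 96.0 CPM at 1 h, and in CS3 at 1 h replicate 1 was lowest with 62.7 CPM. The part of these libraries in the differences between the lines and WT was not tested beyond leaving each one out.

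**Figure D4:**
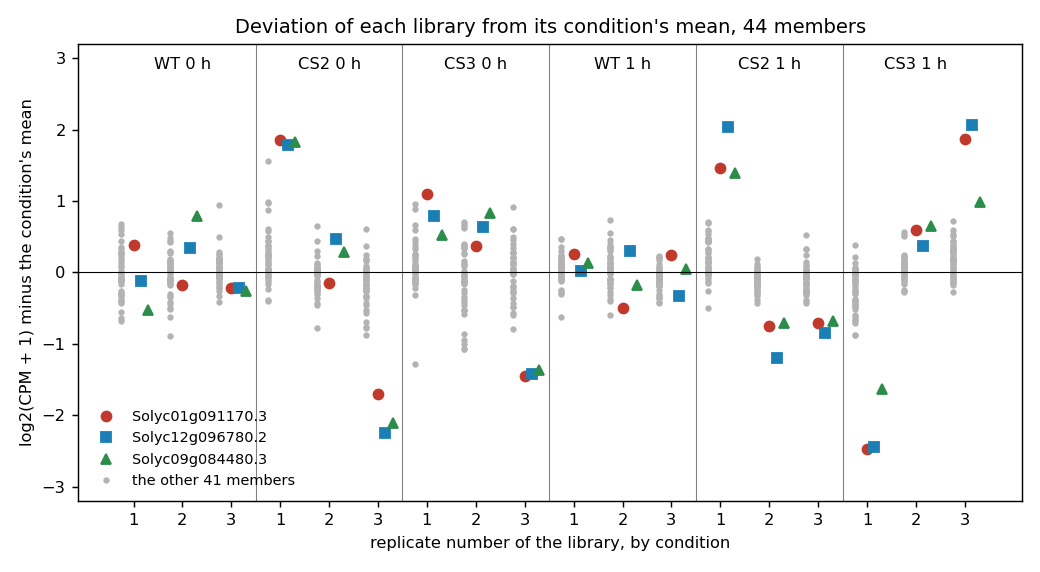
Deviation of log2(CPM + 1) in each library from the mean of its condition, with Solyc01g091170.3, Solyc12g096780.2 and Solyc09g084480.3 as large symbols and the other 41 members in grey. In WT the 3 genes lie among or close to the other members, whereas in CS2 and CS3 they move together, up in some libraries and down in others.

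Solyc05g014280.4 (chromosome 5, from 8073326 to 8075912) was the 1 member at least 1 lower in both lines before HS. Its CPM at 0 h was 41.3, 51.1 and 78.1 in WT. CS2 had 9.33, 20.1 and 10.2, and CS3 had 7.08, 24.6 and 36.2, and every library of the lines lay below every WT library. At 1 h it was 288, 313 and 262 in WT, against 277, 191 and 150 for CS2 and 302, 360 and 273 for CS3. The rise was therefore 2.32 in WT, 3.86 in CS2 and 3.73 in CS3. The difference of CS3 from WT at 0 h, -1.29, became -0.88 without CS3 replicate 1 and -0.997 without WT replicate 3.

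Taking both lines together, 3 members had all 6 libraries at 0 h higher than any WT library, and 2 had all 6 lower, against 1.99% and 0.934% of all tested genes. For CS2 alone these numbers were 7 and 4 (5.71% and 3.78% of all tested genes), and for CS3 alone 8 and 4 (8.29% and 5.72%). Besides Solyc08g006765.1, which the count minimum favoured in this direction, those above were Solyc01g098540.3, with 4.27 ± 0.234 CPM in WT, 7.57 ± 3.37 in CS2 and 7.68 ± 3.50 in CS3, and Solyc06g082480.3. Besides Solyc05g014280.4, the member below was Solyc07g055870.4, with 7.81 ± 0.433 CPM in WT, 5.12 ± 1.26 in CS2 and 3.8 ± 0.477 in CS3 (SD, n = 3). Solyc07g055870.4 then reached 55.1 ± 12.7 CPM in WT, 45.3 ± 9.93 in CS2 and 76.5 ± 5.88 in CS3 at 1 h.

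**Figure D5:**
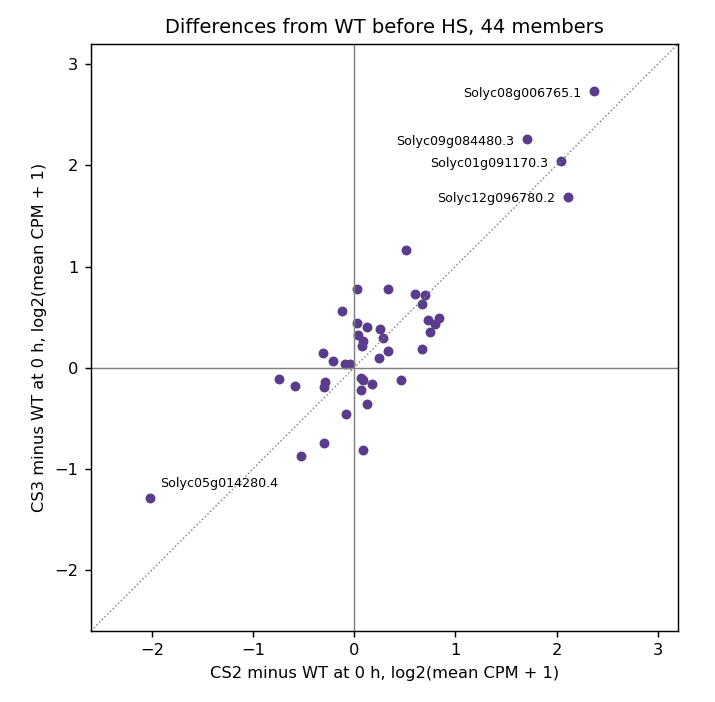
Difference of CS3 from WT against that of CS2 from WT at 0 h, on the log2(mean CPM + 1) scale, for the 44 members, with a dotted line where both are equal. Most members lie within 1 of WT in both lines, with 4 more than 1 above WT in both and Solyc05g014280.4 more than 1 below it in both, and both axes share the same WT libraries.

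At 1 h the means of both lines had to lie within 0.5 of WT, as 65.8% of all tested genes did in CS2 and 71.4% in CS3. Within that band, the members had a median difference from WT of -0.25 in CS2, where 31 of 44 lay below WT, and of 0.09 in CS3, where 18 lay below. Over all 15312 tested genes the median was 0.016 in CS2, with 7420 below WT, and 0.015 in CS3, with 7435 below. These 1 h levels entered the rule, so nothing is read from the member counts. Mean levels within the band did not always go with overlapping libraries. In CS2, 9 members lay below WT in every library and 2 above, against 23% and 23.9% of all tested genes. In CS3, 2 lay below and 5 above, against 22% and 23.3%. Solyc01g107740.3 and Solyc04g079940.3 lay below WT in every library of both lines. For Solyc01g107740.3 the CPM was 91.0, 107 and 80.6 in WT. CS2 had 72.4, 62.6 and 73.6, and CS3 had 62.0, 70.3 and 78.0. Solyc05g056570.3 was among the closest in CS2, with 138 ± 13.7 CPM in WT and 139 ± 4.25 in CS2, and stood at 169 ± 12.2 in CS3 (SD, n = 3).

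Between the lines at 1 h, 8 members lay higher in every CS3 library than in every CS2 library, and 2 lower, against 10.7% and 11.3% of all tested genes. Solyc09g064380.3 and Solyc04g082160.4 were among the 8. Solyc02g093270.4 was one of the 2, with 113 ± 4.37 CPM in CS2 and 83.7 ± 4.63 in CS3 (SD, n = 3), beside 84.7 ± 12.9 in WT.

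Just inside the limit on the rise in WT were Solyc07g006180.3 with 2.02 and Solyc11g068440.2 with 2.03, and just outside it Solyc01g108910.4 with 1.98 and Solyc09g074270.3 with 1.95. For the difference at 1 h, the larger of both lines, Solyc04g079940.3 with 0.496 and Solyc12g096780.2 with 0.493 were just inside, and Solyc03g117960.4 with 0.502 and Solyc12g036650.2 with 0.508 just outside. For the count per base, Solyc02g093270.4 with 0.28 and Solyc07g054790.1 with 0.278 were just inside, and Solyc03g119530.3 and Solyc01g100230.3, both at 0.301, just outside. Another 38 genes met every condition except the limit on count per base.

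The 13 members not described singly rose by between 2.04 and 2.98 in WT, from 1.24 to 3.09 in CS2 and from 1.44 to 3.57 in CS3. Their mean CPM in WT was between 1.61 and 33.0 at 0 h and between 16.9 and 156 at 1 h. All 13 belong to the 40 members whose 1 h libraries lay above the 0 h libraries in each genotype.

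The members lay on all 12 chromosomes and the mitochondrial sequence, with 5 each on chromosomes 1, 3 and 4 and 1 on chromosome 12. Their gene spans ran from 273 to 12186 bases with a median of 2766. Among them, Solyc11g006740.3, Solyc04g010250.3 and Solyc04g079940.3 overlap a gene on the opposite strand, which the strand-specific counting separates, and none overlaps a gene on its own strand.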

How the data were processed

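RNA-seq values came from 1 table of whole-number counts per gene that the authors deposited for 18 libraries, without normalization. Per the submitters' processing notes and the file header, single-end reads of 75 bases were trimmed (Trimmomatic 0.38), aligned, filtered at a mapping quality of 30, cleared of PCR duplicates (SAMtools 1.9) and counted by strand over whole gene spans of the M82 annotation with featureCounts 2.0.0, multi-mapping and overlapping reads included. The authors then used DESeq2. The paper names STAR as aligner, the notes Bowtie2 2.3.5. Since reads that start at the same base count once, counts approach a ceiling set by gene length, hence the limit on count per base.

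Members and lists were chosen with earlier results of these data known. CPM used the column totals with a pseudocount of 1 CPM. Tests used edgeR 4.0.16 (R 4.3.3, limma 3.58.1) with TMM factors, in one fit of 6 conditions, adjusted by Benjamini-Hochberg over 15312 genes. DESeq2 1.42.0 was an alternative. The labels and the table hold 3 libraries per condition, called biological replicates, whereas the paper states 2 independent ones, each of pooled seedlings. Whether all 3 are independent is therefore not settled, and p-values and SDs measure the spread between these libraries. Chi-square per gene between replicates was between 1.54 and 10.9, so none was a copy.

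Named genes are the 8 members with the highest CPM in WT at 1 h, the 8 with the largest rise, those called at 0 h and those nearest each limit. Others are named after their values were seen. Of the 43 members on numbered chromosomes, 22 had a positional counterpart in RefSeq SLM_r2.1 (neighbours within 150000 bases, tolerance 500 bases, strand not used), 1 of them with a gene symbol. A counterpart needed at least 1.5 times the matched neighbours of the next best position and a span ratio of at most 1.25. Planned lists by gene description, leaf markers and promoter motifs were not run here.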

Additional observations from a re-analysis of the deposited data

Results flagged for a closer look

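Among 42 sets of 6 libraries of the lines (21 members at 0 h and at 1 h, both lines together), 3 held a library far from the others by Dixon's test, where chance gives about 1 in 20. At 0 h, CS3 replicate 2 was highest for Solyc09g005120.3 with 34.4 CPM, and CS2 replicate 1 was highest for Solyc11g010170.2 with 63.9 CPM. At 1 h, CS3 replicate 3 was highest for Solyc08g006765.1 with 21.8 CPM.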

How the results depend on the processing

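The number of members was 44, and 82 with no limit on count per base. With TMM or DESeq2 scaling it was 53 and 52, of which 42 were shared with the 44 in either case. With 1 of the 12 libraries whose levels the rule uses left out it was between 34 and 47, with between 28 and 43 shared, lowest without CS2 replicate 1 at 1 h, and 11 members remained whichever library was left out. Members called at 0 h were 0 for CS2 against CS3 under all 13 alternatives. For CS2 against WT the count of 0 became 2 with no filter on low counts and 2 with DESeq2. For CS3 against WT the count of 1 became 0 with library size only, upper quartile or only the libraries compared, and 3 with no filter or DESeq2. For the mean of both lines the count of 1 became 2 with no filter, filterByExpr or DESeq2, and 0 with only the libraries compared. With 1 library left out these 2 counts were between 0 and 1 and between 0 and 2. With the replicate number as a block (replicate block) both were 0. Whether same-numbered libraries share more than a number is not given. At 0 h, deviations of same-numbered libraries of different genotypes had correlations between -0.02 and 0.41, 5 of 9 above 0.1. Each 0 h library was also set against the 3 libraries of each other genotype at 0 h. In 11 of these 18 searches the best match had the same number. The main fit took no account of the number, so whether libraries are paired by it is not settled. The 4 members at least 1 higher in both lines at 0 h were between 2 and 4 with 1 library left out (a choice made after seeing the data), and the 1 lower member between 0 and 1. The causes were not tested. No sign reversal of a called value occurred.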
